A study of Mus musculus with 9 samples.

Results

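The 41 genes described here are a list of known cell cycle genes, followed as a group in single cells of the mouse neocortex among the 17487 genes listed in the data. They comprise 23 genes that peak in G2 and mitosis, 11 genes of S phase, and 7 others (the G1 cyclins Ccnd1 and Ccnd2, and Hmgb2, Smc2, Smc4, Cks2 and Pttg1). The list was taken by name and not by a rule on measured values, though earlier results of these data were known then. Neocortices of E18.5 embryos were dissociated and profiled with droplet 3′ sequencing, as 1 library per animal, with 5 libraries labelled WT (WT1 to WT5) and 4 labelled KO (KO1, KO2, KO4 and KO5). All embryos came from breedings of heterozygous Tcf4ex4WT/lacZ mice, so WT and KO were littermates, and in KO embryos both Tcf4 alleles held the insertion (lacZ and neomycin resistance, upstream of exon 4) in every cell of the body. This allele removes the long isoform of the transcription factor TCF4 and leaves shorter isoforms in place. WT2, WT3 and WT4 were compared with KO4 and KO5, the libraries that met the study's rule of more than 500 cells and normal Tcf4 in WT, and the others are given as values.

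Cells copy their DNA in S phase and divide it in mitosis. The S genes build nucleotides (Rrm1, Rrm2, Tyms), open the double helix (the Mcm subunits) or hold the polymerase on DNA (Pcna). The G2/M genes untangle and attach chromosomes (Top2a, Cenpf, Spc25), drive entry into mitosis (Cdk1 with Ccna2, Ccnb1 and Ccnb2) and mark proteins for destruction at its end (Cdc20, Ube2c). D-type cyclins act in G1, where a cell decides whether to enter another cycle, and Cdkn1b blocks that entry. In late embryonic neocortex, dividing cells are mainly radial glia, Eomes intermediate progenitors that make glutamatergic neurons, precursors of oligodendrocytes, and Dlx progenitors that belong to the inhibitory lineage of the ganglionic eminences.

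Genes of the late cycle share short promoter elements, and 4 windows of members whose levels are described below are shown for that reason. The sequences are the 150 bases before the start site in RefSeq (GRCm38.p6), in gene orientation, for Top2a (chr11:99024190-99024339, minus strand), Spc25 (chr2:69206214-69206363, minus strand), Mcm6 (chr1:128359706-128359855, minus strand) and Rrm1 (chr7:102441545-102441694, plus strand). Capitals mark matches on either strand to the cell cycle homology region (TTTGAA or TTCGAA), the CCAAT box (CCAAT) or an E2F core (GGCGGGA or GGCGCGA or TTTGGCG or TTTCGCG), and matches may overlap.
Top2a: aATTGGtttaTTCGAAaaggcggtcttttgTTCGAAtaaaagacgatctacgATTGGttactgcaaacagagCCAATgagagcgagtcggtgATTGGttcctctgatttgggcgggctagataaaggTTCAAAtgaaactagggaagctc
Spc25: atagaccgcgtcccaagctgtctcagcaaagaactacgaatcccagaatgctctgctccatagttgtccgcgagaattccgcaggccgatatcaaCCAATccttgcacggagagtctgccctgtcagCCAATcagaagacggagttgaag
Mcm6: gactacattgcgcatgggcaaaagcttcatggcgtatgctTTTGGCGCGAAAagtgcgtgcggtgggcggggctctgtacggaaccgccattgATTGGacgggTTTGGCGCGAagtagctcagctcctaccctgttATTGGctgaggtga
Rrm1: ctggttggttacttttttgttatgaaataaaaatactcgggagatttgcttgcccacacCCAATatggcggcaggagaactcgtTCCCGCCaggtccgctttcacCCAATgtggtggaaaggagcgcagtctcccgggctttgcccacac
The Top2a window held 3 cell cycle homology regions and 4 CCAAT boxes, and the Spc25 window held 2 CCAAT boxes. Mcm6 held 2 CCAAT boxes and 5 overlapping E2F matches, and Rrm1 held 2 CCAAT boxes and 1 E2F match. A window of 300 bases (250 before and 50 after the start) was given for 33 of the 41 members, and not for Ccna2, Aurkb, Ccnd1, 2810417H13Rik, Tpx2, Mcm4, Smc4 and Ccnd2. The cell cycle homology region was found in 16 of 20 G2/M members and 2 of 9 S members, against 19.2% of all windows. The CCAAT box was found in 18 of 20 G2/M and 8 of 9 S members, against 37.4% of all windows, and the E2F core in 8 of 20 and 5 of 9, against 15.5%. A match describes the letters of the window and does not show that a factor binds there.

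The libraries differed in ways that touch every comparison below. After filtering they held 126 to 6173 cells with median depths of 2217 to 4359 unique molecular identifiers (UMIs) per cell, and 252 barcodes occurred in more than 1 library. Tcf4 stood at 12.2, 12.6 and 12.2 UMIs per 10000 in WT2, WT3 and WT4 against 9.29 and 7.59 in KO4 and KO5, while WT5 (7.20), WT1 (4.65) and KO1 (16.7) went against their labels. A 3′ tag does not read the disrupted exon, so it checks this allele only in part. Cells rich in haemoglobin, which were left out, made up 13.9% of KO4 and 40.4% of KO5 against 0.42 to 3.71% of the WT libraries. Clusters that no marker list named held 9.40 to 10.8% of WT2, WT3 and WT4, 65.1% of KO4, 82.4% of KO5 and 85.7% of WT5. WT1, WT2, WT3, KO1 and KO2 were deposited as logs and the other 4 libraries as counts, so the compared KO libraries fall in one set with WT4 alone. The part of these differences in the results was not tested beyond the values given with and without the libraries concerned.

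In WT2, WT3 and WT4, most members were highest in Dlx progenitors, followed by the oligodendrocyte lineage and then by radial glia with astrocytes and Eomes intermediate progenitors. The classes held 71 to 520, 58 to 291, 89 to 324 and 87 to 242 cells per WT library. Summed over the 23 G2/M members, Dlx progenitors had 73.4, 66.7 and 31.2 UMIs per 10000 in WT2, WT3 and WT4. The oligodendrocyte lineage had 44.8, 47.7 and 35.4, radial glia and astrocytes 29.0, 27.8 and 14.6, and Eomes cells 23.7, 24.4 and 17.2. Radial glia and Eomes cells overlapped, and WT4 was the lowest library in each class. Upper layer neurons, which no longer divide, had 1.72, 1.09 and 1.34, a background level of these genes, which stood at 2.2996 in KO4 and 4.39 in KO5.

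Cdk1, Plk1, Mcm3, Mcm6 and Ccnd1 peaked in the oligodendrocyte lineage. The mean of Pttg1 was highest in endothelial cells (0.788), close to mural cells (0.728) and radial glia (0.702). The endothelial mean rests on WT3, with 1.67 in 12 cells, against 0.377 in WT2 and 0.318 in WT4. Top2a, the topoisomerase that untangles sister chromosomes, averaged 9.74 UMIs per 10000 in Dlx progenitors, 5.93 in the oligodendrocyte lineage, 3.18 in Eomes cells, 2.62 in radial glia and 0.097 in upper layer neurons. The S gene 2810417H13Rik, which encodes a partner of Pcna, averaged 9.06, 6.16, 3.17, 2.41 and 0.106 in the same classes. Ccnd2 was 46.8 in Dlx progenitors against 18.7, 10.1 and 11.5 in the oligodendrocyte, Eomes and radial glial classes. Ccnd1, the other D-type cyclin listed, was instead low in Dlx progenitors, at 0.107. It was 1.97 in the oligodendrocyte lineage, 1.35 in endothelial cells, 0.664 in radial glia and 0.265 in Eomes cells. The oligodendrocyte, radial glial and Eomes classes were thus ordered as for Ccnd2. Mcm7 was the S member that fell least outside the progenitors, with 0.642 in upper layer neurons against 2.33 in Dlx progenitors. Over the 21 clusters of these 3 libraries, the genes outside all lists whose level most resembled the summed S and G2/M members were Hist1h1b (Pearson r = 0.969), Kif15 (0.959), Spc24 (0.954), H2afz (0.953) and Hist1h2ap (0.9503). The clusters share libraries and differ in depth, so these correlations are descriptions.

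**Figure D1:**
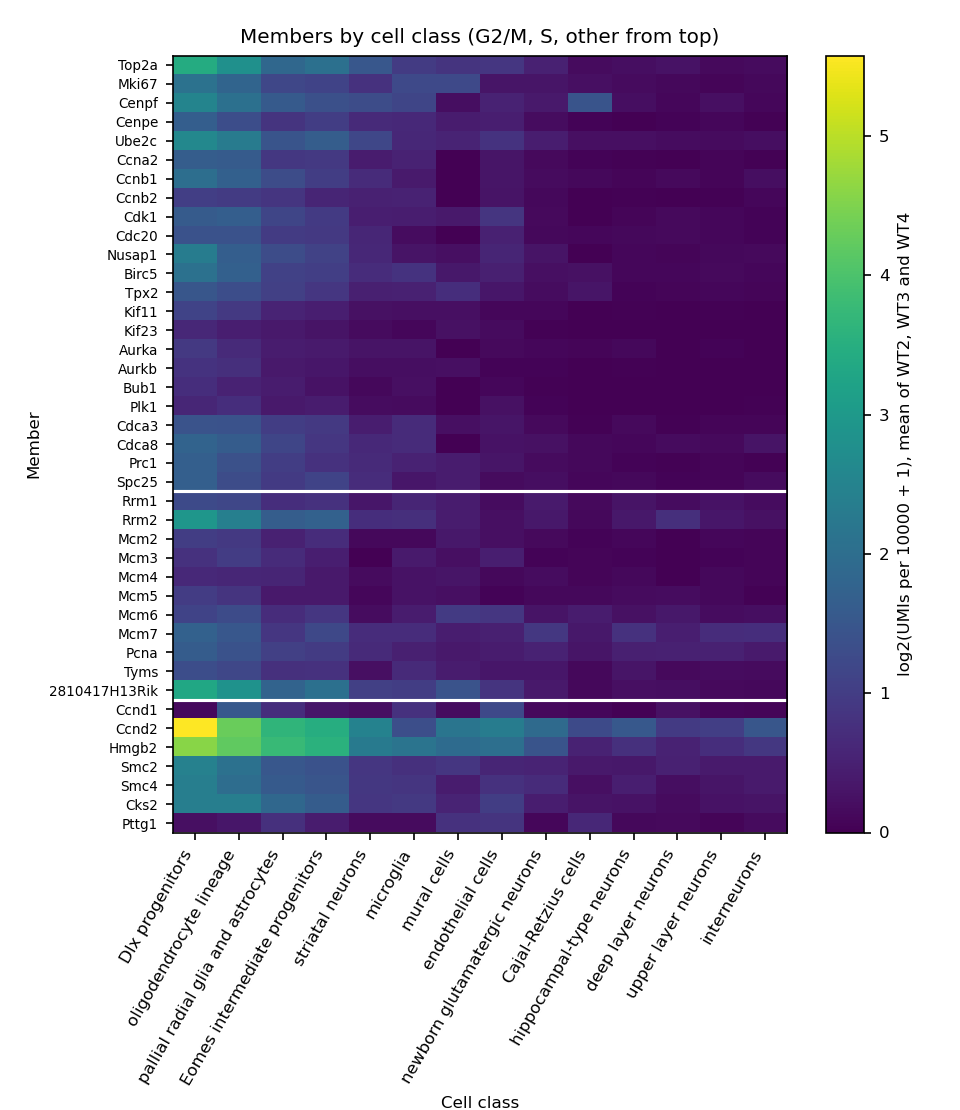
Mean level of each member (rows) in each named cell class (columns) of WT2, WT3 and WT4, coloured as log2(UMIs per 10000 + 1). G2/M, S and other members are separated by white lines. The Dlx, oligodendrocyte, radial glial and Eomes columns are the brightest, and Ccnd2 and Hmgb2 are the brightest rows.

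The class names were checked against marker genes. Summed radial glial markers (5 genes) reached 32.9, 33.9 and 37.6 UMIs per 10000 in the radial glial class of WT2, WT3 and WT4, but only 14.1 and 13.2 in KO4 and KO5 and 12.4 in WT5. The 3 Eomes markers stood at 15.4, 16.8 and 14.9 against 7.52 and 5.50 in their own class, the 5 Dlx markers at 16.4, 22.4 and 21.2 against 9.06 in KO4, and the 4 oligodendrocyte markers at 12.8, 11.3 and 17.7 against 10.96 in KO4. Markers of upper layer neurons (3 genes) moved the other way in radial glia, from 2.84, 2.36 and 2.23 to 6.85 and 7.77, with 9.56 in WT5, and haemoglobin UMIs rose from 5.22 to 6.98 in WT to 18.1 and 48.4. Eomes cells showed the same shift, with upper layer markers at 2.39, 2.04 and 2.33 against 8.45 and 9.57 and haemoglobins at 4.61 to 8.62 against 25.7 and 52.4. In Dlx cells of KO4, upper layer markers stood at 7.86 against 2.76, 1.63 and 2.53 and haemoglobins at 25.7 against 5.39, 8.65 and 5.75. In the oligodendrocyte lineage of KO4 they stood at 4.999 against 2.12, 1.16 and 1.87 and at 19.8 against 4.23, 6.78 and 4.62. The cells assigned to one class in WT and KO therefore differed in their defining markers. The part of this difference in the results below was not tested.

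Across all kept cells, the members were lower in KO4 and KO5 than in WT2, WT3 and WT4, but none passed the test. Summed S members stood at 6.64, 7.82 and 4.56 UMIs per 10000 in WT2, WT3 and WT4, against 3.35 and 3.68 in KO4 and KO5. Summed G2/M members stood at 14.2, 11.98 and 7.87 against 6.51 and 6.86, so the groups did not overlap for either sum. In bulk values such as these, fewer dividing cells and less of these RNAs per cell cannot be told apart. The 4 progenitor classes together made up 26.4, 27.1 and 22.3% of kept cells in WT2, WT3 and WT4. They made up 8.31% in KO4, 4.91% in KO5 and 2.62% in WT5. Unnamed clusters count in these shares, and they held 65.1% of KO4, 82.4% of KO5 and 85.7% of WT5. Among cells of named clusters, the classes held 312 of 1066, 438 of 1465 and 1377 of 5504 in WT2, WT3 and WT4. In KO4 and KO5 they held 349 of 1465 and 113 of 405, and in WT5 95 of 520.

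Ccnd2, which drives entry into the cycle, was 9.95, 5.998 and 5.12 UMIs per 10000 in WT2, WT3 and WT4, against 2.53 and 3.50 in KO4 and KO5 (log2 difference -0.96 ± 0.24 SE, limma adjusted p = 0.144). Top2a was 2.31, 1.55 and 0.871 against 0.566 and 0.543 (-0.69 ± 0.21, adjusted p = 0.157). 2810417H13Rik was 1.65, 1.85 and 0.948 against 0.635 and 0.633 (-0.58 ± 0.15, adjusted p = 0.144). For these 3 genes both KO libraries lay below all 3 WT libraries, yet WT5, labelled WT, had 2.99, 0.370 and 0.550, between the KO values for Ccnd2 and below them for the other two. The chromatin protein Hmgb2 (5.23, 6.21 and 3.56 against 3.31 and 3.63) and the kinase subunit Cks2 (1.31, 1.10 and 0.863 against 0.866 and 0.862) overlapped. Ube2c, the ubiquitin-conjugating enzyme of mitotic exit, differed little, with 1.16, 1.08 and 0.928 against 0.873 and 0.898. Cenpf stood at 1.18, 0.934 and 0.761 against 0.585 and 0.614, Rrm2 at 1.10, 1.66 and 0.709 against 0.612 and 0.690, and Mcm7 at 1.25, 0.851 and 0.716 against 0.516 and 0.592. All 41 members had the lower mean in KO.

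By limma, 0 of the 41 members passed an adjusted p of 0.05, where 1.15% of the 8554 genes tested did. An unadjusted limma p under 0.05 was reached by 21 members and by 2202 of the 8554 genes. Of the same 8554 genes, edgeR called 137 and 0 members, and DESeq2 called 330 and 7 members. The fit without WT4 called 27 members and 1394 of 8380 genes, so both counts rest on WT4. In 30 of 41 members both KO libraries lay below the 3 WT libraries, and in 0 above, while 43.9% of all genes tested lay below and 9.03% above. The 30 comprised all 11 S members, 16 of 23 G2/M members and 3 of 7 others. The median log2 difference of the members was -0.17 against -0.046 for all genes tested. Within the libraries deposited in one form the order depended on the library. The share of all genes in these orders was not counted, so they describe the members only. Among those deposited as counts, 31 members lay below WT4 in both KO4 and KO5 and 1 above, and with WT5 included 0 lay below both WT libraries and 1 above. Among those deposited as logs, with WT1, WT2 and WT3 against KO1 and KO2, 0 lay below and 14 above (3 and 14 without WT1), and Top2a (log2 0.59) and Ccnd2 (0.43) turned positive.

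**Figure D2:**
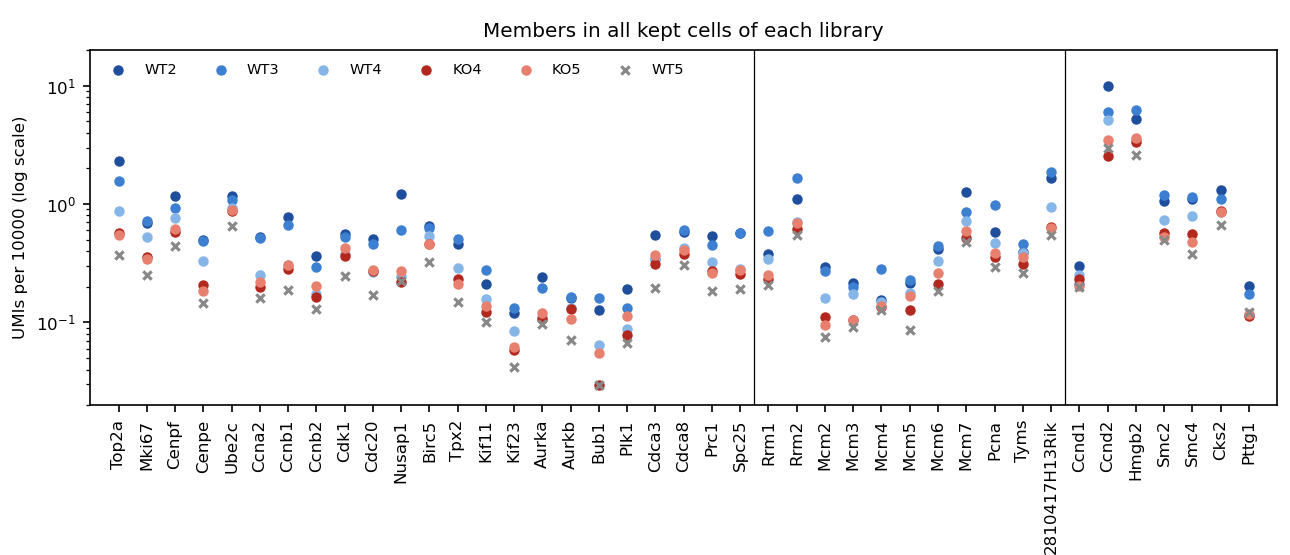
Level of each member in all kept cells, in UMIs per 10000 on a log axis, with 1 point per library for WT2, WT3, WT4 (blue), KO4, KO5 (red) and WT5 (grey crosses). Both KO points lie below the blue points for 30 of 41 members, and WT5 lies at or near the KO points.

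In the pallial radial glia and astrocytes, 4 members fell in KO by limma, namely the S genes Rrm1, Mcm3 and 2810417H13Rik and the cyclin Ccnd2. These cells numbered 89, 117 and 324 in WT2, WT3 and WT4, against 173 and 74 in KO4 and KO5. Ccnd2 was 16.1, 10.3 and 8.13 UMIs per 10000 in WT and 4.42 and 5.27 in KO (log2 -1.05 ± 0.20, adjusted p = 0.0026). 2810417H13Rik was 2.64, 2.85 and 1.75 against 1.47 and 1.02 (-0.60 ± 0.17, adjusted p = 0.027). Rrm1, a subunit of the enzyme that makes deoxyribonucleotides, was 0.754, 0.728 and 0.528 against 0.410 and 0.105 (-0.42 ± 0.13, adjusted p = 0.045). Mcm3 was 0.653, 0.572 and 0.573 against 0.293 and 0.151 (-0.39 ± 0.12, adjusted p = 0.040). In each of these genes the KO libraries lay below every WT library.

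The 23 G2/M members gave no call in these cells. Top2a was 3.11, 3.31 and 1.44 against 1.54 and 1.03, with KO4 above WT4, and Ube2c was 2.20, 1.69 and 1.35 against 1.68 and 2.15. Over all 41 members, both KO libraries lay below the WT libraries in 12 (7 of 11 S, 2 of 23 G2/M, 3 of 7 others) and above in 1, Aurkb, while 24.3% of all genes tested lay below and 12.2% above. The share called, 4 of 41, stood beside 4.88% of the 9201 genes tested. EdgeR and DESeq2 called only Ccnd2, and limma called 1 member without WT2, WT3 or KO5 and 15 without WT4. Of the 9201 genes, edgeR (TMM scaling) called 231 and DESeq2 169. Without WT2, WT3 and WT4, limma called 221 of 8880, 363 of 8920 and 679 of 8764 genes. The 4 calls of the main fit were lost, with 0 members left, when WT5 was added and in the fit with replicate number as a block. They were also lost within the libraries deposited as counts or as logs. Within the logs both KO libraries lay below in 4 members and above in 2 (13 and 2 without WT1). Within the counts they lay below in 1 and above in 15 (14 and 19 without WT5). These orders were not counted over all genes. The log2 difference of Ccnd2 stayed negative, at -0.26 within the logs and -0.33 within the counts. WT5 had 4.85 UMIs per 10000 of Ccnd2 in these cells.

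In the Eomes intermediate progenitors, 7 members fell in KO by limma. They were the G2/M genes Top2a and Spc25, the S genes Mcm2, Mcm6 and 2810417H13Rik, and both condensin subunits, Smc2 and Smc4, which compact chromosomes for division. The class held 87, 166 and 242 cells in WT2, WT3 and WT4, against 109 and 27 in KO4 and KO5. Top2a was 4.18, 3.39 and 1.98 UMIs per 10000 in WT and 1.17 and 1.13 in KO (log2 -0.92 ± 0.20, adjusted p = 0.0074). Smc2 was 1.88, 1.73 and 1.30 against 0.778 and 0.155 (-0.87 ± 0.18, adjusted p = 0.0059), and Smc4 was 2.01, 1.91 and 1.34 against 0.778 and 0.489 (-0.75 ± 0.17, adjusted p = 0.015). In KO5 these values came from 27 cells only.

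Mcm6, a subunit of the replicative helicase, was 1.02, 0.918 and 0.565 against 0.166 and 0.189 (log2 -0.63 ± 0.15, adjusted p = 0.015). Mcm2 was 0.921, 0.610 and 0.371 against 0.179 and 0.107 (-0.50 ± 0.14, adjusted p = 0.049). 2810417H13Rik was 3.35, 4.20 and 1.95 against 1.22 and 1.55 (-0.77 ± 0.20, adjusted p = 0.036). Spc25, a kinetochore protein, was 1.43, 1.27 and 0.870 against 0.492 and 0.385 (-0.60 ± 0.16, adjusted p = 0.038). The KO libraries lay below the WT libraries for all 7 genes. Ccnd2 also lay lower, with 16.2, 8.23 and 6.02 against 4.40 and 3.43, but did not pass the test.

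Among the 41 members, both KO libraries lay below the WT libraries in 19 and above in 2 (Aurka and Aurkb) in Eomes cells, where 25.6% of all genes tested lay below and 11% above. The share called, 7 of 41, stood beside 2.84% of the 8842 genes tested. EdgeR (TMM scaling) called 6 members among 120 of 8842 genes, and DESeq2 only Top2a among 63 of 8842. The fit with replicate number as a block called only Smc2, among 33 of 9254 genes. Limma called 1 member without WT2 or WT3, 13 without WT4 and 0 without KO5. Without WT2, WT3 and WT4, 97 of 8465, 87 of 8546 and 447 of 8464 genes were called. With WT5 added, and within the libraries deposited as counts or as logs, 0 members passed. Within the logs, WT2 and WT3 stood against KO1 with 25 cells and KO2 with 12. There 17 members lay below and 3 above, with a median log2 difference of -0.21 against -0.19 in the main comparison. Within the counts 7 lay below and 3 above, and without WT5 19 and 4. For neither form was the share of all genes in these orders counted. When cell cycle genes were allowed to shape the clusters, 0 members passed, and Top2a (log2 0.059) and Smc2 (0.30) turned positive. In that clustering the Eomes class held few dividing cells, with 12% of WT cells and 15.6% of KO cells at 3 or more cell cycle UMIs.

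In Dlx progenitors, the KO values come from a single animal. The class held 78, 71 and 520 cells in WT2, WT3 and WT4, 29 in KO4 and 8 in KO5, which was left out, so no spread between KO animals was measured and no p is given. Ccnd2 was 60.2, 50.5 and 29.9 UMIs per 10000 in WT and 8.16 in KO4 (log2 -2.56 by edgeR). It was the one member past the threshold of edgeR, which takes the lone KO library to vary like the WT libraries and called 0.143% of the 8387 genes tested. The planned limma fit called 10 members beside 7.76% of all genes, but at this size it also called unchanged genes in simulated counts, so neither set of calls is read here. Top2a was 14.6, 10.9 and 3.699 against 1.09, Mki67, the common marker of dividing cells, 3.26, 4.45 and 2.15 against 1.36, and the mitotic kinesin Kif11 1.19, 1.64 and 0.668 against 0. KO4 lay below every WT library for each. Smc2 was 4.71, 6.55 and 2.25 against 0.882, Tyms 1.70, 1.79 and 1.03 against 0.406, and Mcm6 0.920, 1.90 and 0.709 against 0.255. Mcm3 was 0.763, 1.01 and 0.423 against 0.146, and the spindle genes Tpx2 and Cdca8 were 2.15, 2.34 and 1.01 against 0.5001, and 2.56, 3.26 and 1.52 against 0.825. These WT libraries spread widely, with WT4 lowest in each. Other members did not separate, as Cdc20 was 2.27, 1.79 and 0.908 against 2.34 in KO4, and Ube2c 6.16, 4.98 and 4.01 against 4.23. On the log2 scale 39 of 41 members were lower in KO4 than the WT mean. Their median difference was -0.58, against -0.044 for all genes tested. The share of all genes with KO4 below every WT library was not counted. WT5, with 10 cells, had 4.80 UMIs per 10000 of Ccnd2, and KO1, also with 10 cells, had 41.7, so WT5 lay below KO4 and KO1 lay within the range of the 3 WT libraries.

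The difference between genotypes was also compared between lineages, as the change in Dlx progenitors minus the change in radial glia and Eomes cells together. KO4 was again the only KO animal on one side of this contrast, so its values are descriptions. EdgeR with library as a block put 3 members past its threshold, beside 0.247% of the 9312 genes tested. Their log2 differences were -1.94 for Top2a, -1.49 for Ccnd2 and 3.50 for Ccnd1. Ccnd1 was 0.133, 0.065 and 0.122 UMIs per 10000 in Dlx progenitors of WT2, WT3 and WT4, from 3, 2 and 25 UMIs, and 0.997 in KO4, from 7 UMIs. The limma fit of the same contrast called Ccnd1 and Ccnd2, beside 0.333% of all genes, and is not read for the reason above. All 3 rest on the 29 Dlx cells of KO4, from 1 animal.

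**Figure D3:**
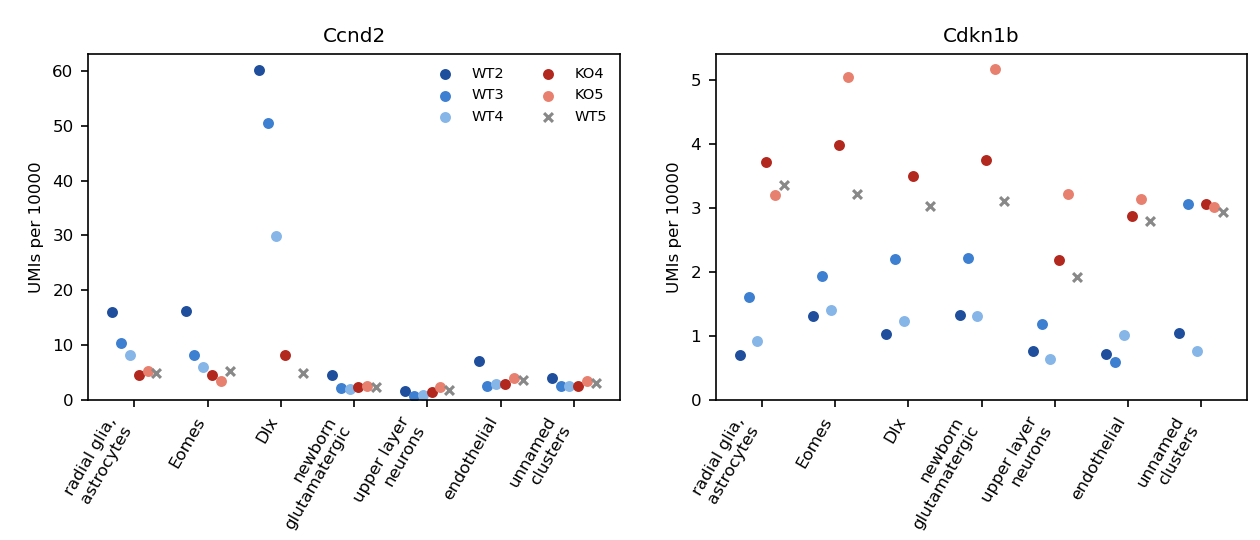
Level of Ccnd2 (left) and Cdkn1b (right) in UMIs per 10000 by cell class, with 1 point per library holding at least 10 cells of the class, for WT2, WT3, WT4 (blue), KO4, KO5 (red) and WT5 (grey crosses). Ccnd2 is far higher in Dlx cells of WT2, WT3 and WT4 than elsewhere, and KO and WT5 points of Cdkn1b lie above those of WT2 and WT4 in every class shown.

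In the oligodendrocyte lineage only KO4 held 10 or more KO cells (38, with 4 in KO5), against 58, 84 and 291 in WT2, WT3 and WT4, so no test was run. The summed S members were lower in KO4, at 11.03 UMIs per 10000 against 19.2, 25.8 and 18.4. Pcna, the sliding clamp of replication, was 0.338 (5 UMIs) against 1.54, 2.17 and 1.26, and Mcm6 was 0.215 (2 UMIs) against 1.64, 1.35 and 1.29. Other S members lay within the WT range. Rrm1 was 0.855 against 0.847, 1.85 and 1.08, Mcm4 0.433 against 0.271, 0.836 and 0.432, and Mcm5 0.556 against 0.446, 0.956 and 0.966. The G2/M sum did not separate the libraries, with 40.95 against 44.8, 47.7 and 35.4, and Ube2c was 6.18 against 3.87, 4.74 and 3.47. Ccnd2 was 6.74 in KO4 against 24.2, 18.4 and 13.7.

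Other genes of the cycle were read from 5 lists. In all kept cells, 0 genes passed the test among 25 tested S genes, 21 G2/M genes, 5 G1 cyclins, kinases and phosphatases, 8 regulators of the E2F, Rb and Myb-MuvB type, and 9 inhibitors and exit genes. In radial glia and astrocytes, Ckap5, a microtubule polymerase, fell among 28 tested G2/M genes (log2 -0.65, adjusted p = 0.0074), and E2f5, a repressive E2F factor, fell among 14 tested regulators (-0.52, adjusted p = 0.019). In Eomes cells, Atad2 fell among 27 tested S genes (-0.42, adjusted p = 0.037) and Trp53, a stress-response factor that can halt the cycle, fell among 8 tested inhibitors and exit genes (-0.61, adjusted p = 0.038). Within the libraries deposited as logs both turned positive (0.18 and 0.098).

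Cdkn1b, which blocks cyclin-dependent kinases and holds cells out of the cycle, was the only gene of these lists called higher in radial glia and in Eomes cells. It was 0.696, 1.61 and 0.916 UMIs per 10000 in radial glia of WT2, WT3 and WT4, against 3.72 and 3.20 in KO4 and KO5 (log2 1.13 ± 0.17, adjusted p = 2.9e-05). In Eomes cells it was 1.31, 1.94 and 1.39 against 3.98 and 5.05 (1.12 ± 0.18, adjusted p = 3.6e-04). The KO libraries lay above all 3 WT libraries in both classes. Other cells were ordered alike, since upper layer neurons had 0.768, 1.18 and 0.637 against 2.19 and 3.21, and endothelial cells 0.718, 0.593 and 1.02 against 2.87 and 3.14. The label did not set the level in every library, since radial glia of WT5 had 3.35 and those of WT1, with 10 cells, 7.92. Within the libraries deposited as logs, which include WT1, the difference in radial glia reversed (log2 -0.10). That fit was not repeated without WT1. In all kept cells it did not pass the test (0.901, 1.74 and 0.894 against 3.06 and 3.10, log2 0.93, adjusted p = 0.053).

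The genes with the highest mean of each list gave no call in all kept cells, radial glia or Eomes cells apart from Cdkn1b. In all kept cells the log2 differences were -0.12 and -0.074 for the S genes Nasp and Dut, -0.50 and -0.077 for the G2/M genes Tmpo and Cks1b, and -0.45 and 0.010 for the G1 kinases Cdk4 and Cdk6. They were -0.13 for Tfdp2 and -0.097 for Lin37 among the regulators, and -0.45 for Btg1, an antiproliferative gene.

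To count dividing cells, each cell was thinned to 1700 UMIs and the UMIs on the 34 S and G2/M members were added up. The answer depended on where the line was drawn. At 3 or more UMIs, 22.3, 18.8 and 13.8% of cells in WT2, WT3 and WT4 counted as cycling (18.3% ± 4.25, SD, n = 3) against 20.7 and 24.2% in KO4 and KO5 (22.5% ± 2.48, n = 2), and the groups overlapped. At 6 or more UMIs, a line added after the data were seen, the shares were 15.9, 13.2 and 8.39% (12.5% ± 3.79) against 4.62 and 3.13% (3.87% ± 1.06), and both KO libraries lay below every WT library compared. WT5, labelled WT, had 14.0% at 3 UMIs and 0.964% at 6, below both KO libraries at each. With at least 3 UMIs on the S members alone the difference was -7.11 percentage points, and on the G2/M members alone -1.08. Exact 95% binomial intervals at 3 UMIs ran from 19.96 to 24.8% in WT2 and from 22.5 to 26.03% in KO5 and cover counting error only. No p is given for a score made from the listed genes.

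The spread of UMIs over cells differed between the libraries. Cells with 1 to 5 UMIs made up 47.0, 47.5 and 44.6% of WT2, WT3 and WT4 but 66.0% of KO4, 75.2% of KO5 and 68.4% of WT5. Cells with exactly 3 made up 4.5, 3.5 and 3.5% against 10.0 and 12.98%. Upper layer neurons, which do not divide, passed the line of 3 UMIs in 4.75, 2.38 and 2.498% of WT2, WT3 and WT4 and in 6.27 and 7.84% of KO4 and KO5. At 6 UMIs they passed in 0, 0.265 and 0.078% and in 0 and 0%, where 0 of 319 and 0 of 51 cells allow up to 1.15 and 6.98% by the exact interval.

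**Figure D4:**
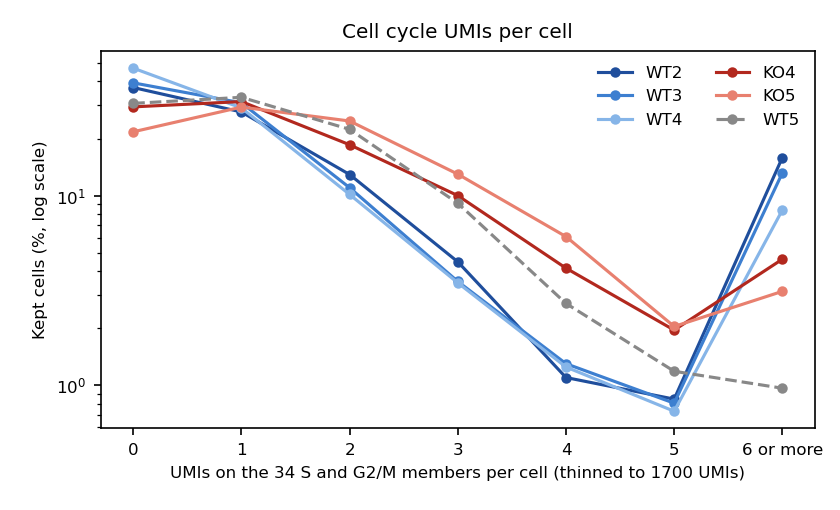
Share of kept cells (log axis) by the number of UMIs on the 34 S and G2/M members per cell, thinned to 1700 UMIs, for WT2, WT3, WT4 (blue), KO4, KO5 (red) and WT5 (grey, dashed). Red and grey lines lie above the blue lines at 3 UMIs and below them at 6 or more UMIs, where the blue lines rise to 15.9, 13.2 and 8.39%.

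Within classes the lines also gave different orders. At 3 UMIs, 49.4, 48.7 and 36.1% of radial glia and astrocytes in WT2, WT3 and WT4 counted as cycling against 57.2 and 60.8% in KO4 and KO5. At 6 UMIs the shares were 39.3, 36.8 and 22.2% against 26.6 and 25.7%, and the groups overlapped. Eomes cells stood at 42.5, 32.5 and 27.7% against 37.6 and 51.9% at 3 UMIs, and at 29.9, 27.7 and 17.4% against 19.3 and 25.9% at 6. The exact 95% interval of KO5, with 27 Eomes cells, ran from 11.1 to 46.3% at 6 UMIs. In Dlx progenitors the shares were 80.8, 80.3 and 35.8% in WT2, WT3 and WT4 at 6 UMIs and 37.9% in KO4, and in the oligodendrocyte lineage 65.5, 57.1 and 52.9% against 63.2%. In these classes neither KO library with at least 10 cells fell below WT4 at 6 UMIs. At 10 or more UMIs, a line also added after the data were seen, the order changed. Radial glia then stood at 30.3, 25.6 and 15.4% in WT2, WT3 and WT4 against 7.51 and 10.8% in KO4 and KO5, and Eomes cells at 24.1, 23.5 and 14.0% against 10.1 and 7.41%. Dlx progenitors stood at 66.7, 73.2 and 31.0% against 24.1% in KO4 and the oligodendrocyte lineage at 50, 50 and 40.2% against 39.5%. KO lay below the 3 WT libraries in each class at this line, and so did WT5 in radial glia (3.39%), Eomes cells (0 of 24) and Dlx progenitors (10.0%). Of the cells at 6 or more UMIs, Dlx progenitors made up 33.5% in WT2, 35.9% in WT4, 5.7% in KO4 and 4.2% in KO5, and unnamed clusters 4.3, 1.7, 33.0 and 43.1%.

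With WT2, WT4 and WT5 matched by number to KO2, KO4 and KO5, the share at 3 UMIs was higher in KO. The difference was 14.7 points over all kept cells, 19.5 points in radial glia and 20.3 points in Eomes cells. In matched pairs the block leaves this difference of group means unchanged, so it departs from the main comparison through the libraries used. WT3 left, and WT5 and KO2 entered. KO2 held 118 cells, 12 of them Eomes cells. The share of cells with a Top2a UMI was 11.1% ± 4.17 in WT (n = 3) and 8.88% ± 0.46 in KO (n = 2), with an exact 2-sided permutation p of 0.8, where the smallest p this design allows is 0.1. Over the matched libraries it was 2.36 points higher in KO. Without WT2 the difference was 0.080 points, so its sign rests on that library. The background in upper layer neurons was 2.53, 0.79 and 0.94% in WT and 4.08 and 7.84% in KO.

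**Figure D5:**
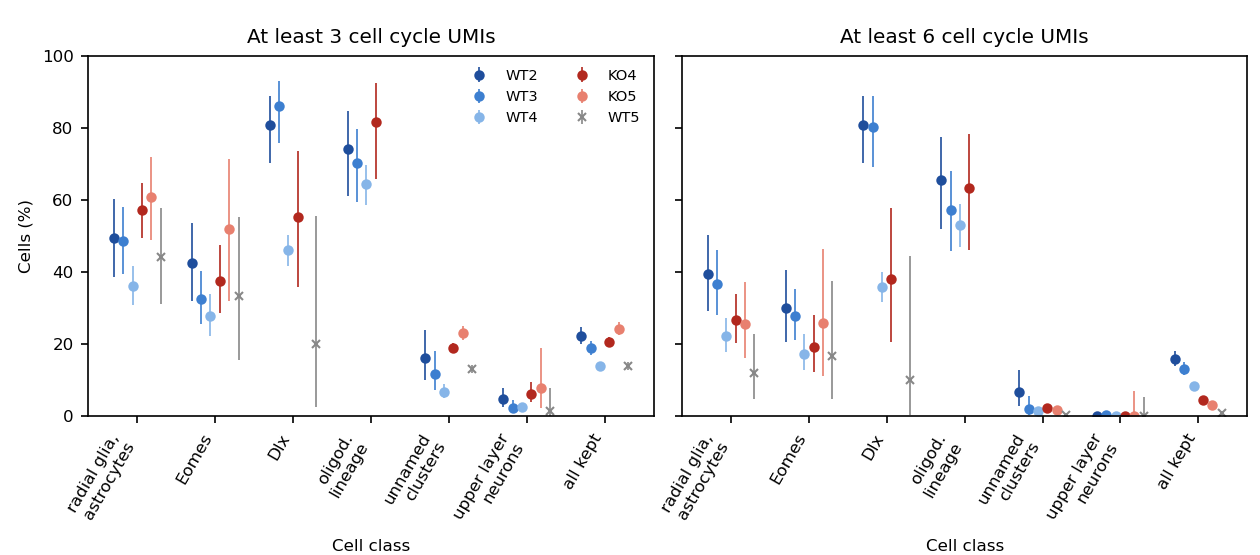
Share of cells with at least 3 (left) or at least 6 (right) UMIs on the 34 S and G2/M members, by cell class, with exact 95% intervals for each library holding at least 10 cells of the class: WT2, WT3, WT4 (blue), KO4, KO5 (red), WT5 (grey crosses). Over all kept cells the red points lie among or above the blue points at 3 UMIs and below them at 6, where the WT5 cross, at 0.964%, lies lower than the red points.

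The balance of S and G2/M UMIs also differed between the libraries, in cells on both sides of the line of 6. In cells under 6 UMIs, S members supplied 51.2, 65.9 and 56.7% of the cell cycle UMIs in WT2, WT3 and WT4, 38.0% in KO4, 37.01% in KO5 and 39.9% in WT5. In cells at 6 or more, which were picked by the same UMIs, S members supplied 26.2, 31.0 and 26.7% of their cell cycle UMIs in WT2, WT3 and WT4, against 21.7 and 22.2% in both KO libraries. Those in which S UMIs outnumbered G2/M UMIs made up 21.3, 31.9 and 27.6% of them in WT and 9.79 and 9.72% in KO. In radial glia these were 8 of 35, 11 of 43 and 15 of 72 cells against 3 of 46 and 0 of 19, and in Eomes cells 6 of 26, 16 of 46 and 12 of 42 against 0 of 21 and 1 of 7. The WT and KO libraries compared did not overlap in any of these shares of cells. The 2 further KO libraries lay between or within them, with 22.8% in KO1 and 10.0% in KO2 over all kept cells, and WT5 had 2.86%. This is a score of the listed genes and was not tested.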

How the data were processed

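Single cells of E18.5 neocortex were profiled in 9 libraries, and groups were taken from the labels. The members and gene lists were chosen with earlier results of these data known. WT4, WT5, KO4 and KO5 were deposited by the authors as UMI counts, and WT1, WT2, WT3, KO1 and KO2 as the natural log of 1 + UMIs per 10000, from which whole UMIs were recovered for 100% of values within 1e-06. Per the labels' processing notes, the authors used Cell Ranger and Seurat. Cells with 1000 to 5000 genes, 1800 to 10000 UMIs, under 6% mitochondrial and at most 1% haemoglobin UMIs were kept. No doublet caller was run. Cells were clustered (scanpy 1.11.5, 2000 variable genes, 30 components, 20 neighbours, Leiden 1) without cell cycle genes and named from markers, and the rule for naming Dlx progenitors was set after the clusters were seen. Levels are means over cells of UMIs per 10000. Genes with at least 0.1 in 2 libraries were tested on log2(level + 1) with limma 3.58.1 (trend, robust, Benjamini-Hochberg, 0.05), which understates changes of low genes. EdgeR 4.0.16 quasi-likelihood and DESeq2 1.42.0 on summed counts were alternatives. Classes with under 10 cells in a library were left out. The limma and edgeR fits of each class and the edgeR contrast of lineages were run on simulated counts, and the other fits were not. For Dlx progenitors the planned limma fit called mostly unchanged genes there. Only 1 KO library entered the Dlx fits and the contrast of lineages, so no p is read for either. Named genes were those called, the 3 highest of each role, the 3 with the most changed level without overlap in all kept cells, and the highest 2 of each wider list. Genes of the wider lists called by limma in Dlx progenitors alone are not described. Aurka, Aurkb, Cdc20, Mcm4, Mcm5, Pcna and the members peaking outside Dlx progenitors were named after their values were seen. Labels give shared numbers, and deviations of same-numbered libraries correlated at 0.596, 0.330 and 0.423. Those of differently numbered libraries correlated at -0.572 to 0.321. The pair at 0.596, WT2 and KO2, were both deposited as logs and the other libraries of this check as counts. Whether the numbers pair the animals is therefore not settled, and a fit with number as a block is given where it changed a call. Each library is 1 animal.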

Additional observations from a re-analysis of the deposited data

Results flagged for a closer look

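The values of 3 members stood apart when the change in Dlx progenitors was set against that in radial glia and Eomes cells by edgeR. The log2 difference of differences was -1.94 for Top2a, 3.50 for Ccnd1 and -1.49 for Ccnd2. The KO side of this contrast is 1 animal with 29 Dlx cells (KO4), so the difference was not tested over KO animals. Ccnd2 was lower in KO4 than in 3 of 3 WT libraries in Dlx progenitors, as was Top2a, and Ccnd1 was higher than in 3 of 3. None of the 46 groups of 4 to 5 libraries held a single library far from the others, where chance gives about 1 in 20.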

How the results depend on the processing

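The counts of members called moved with most choices, and the causes were not tested beyond the construction of each alternative. Calls over all genes moved too. In all kept cells 1394 of 8380 genes passed without WT4, and in radial glia 1170 of 9176 at Leiden resolution 2. Radial glia gave 689 of 9160 with haemoglobin-rich cells kept and 553 of 9298 with gates on marker UMIs. Eomes cells gave 125 of 8842 at a pseudocount of 0.1 and 96 of 8812 at Leiden resolution 0.5. They gave 105 of 8663 with cell cycle genes kept in the clustering and 179 of 8988 with gates. Precision was limited by the 2 KO libraries, by 27 Eomes cells in KO5 and by 29 Dlx cells in KO4, so a member that was not called is not shown to be unchanged. Alternatives on the lines of 6 and 10 UMIs, the unnamed clusters, the unit of deposit and the edgeR contrast of lineages were chosen after seeing the data.

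In all kept cells 0 members passed, against 7 with DESeq2 and 0 to 27 when 1 library was left out, with the 27 reached without WT4. In radial glia and astrocytes, 4 members passed, against 1 each with edgeR under TMM or RLE scaling and with DESeq2, 7 with haemoglobin-rich cells kept, 16 at Leiden resolution 2, 7 with gates on marker UMIs, and 1 to 15 with 1 library left out. In Eomes cells 7 passed, against 1 with DESeq2, 4 at a pseudocount of 0.1, 1 at Leiden resolution 0.5, 0 with cell cycle genes kept in the clustering, 4 with gates, and 0 to 13 with 1 library left out. In both classes 0 passed with no filter on low values, with WT5 added, with all 9 libraries as labelled, within the libraries deposited as logs or as counts, and with the unit of deposit as a term.

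With replicate number as a block, 0 members passed in all kept cells, 0 in radial glia and 1 in Eomes cells, and 0 passed in either class when the same libraries were fitted without the block. Over the libraries of the block, the cycling share differed by 14.7 points in all kept cells, 19.5 in radial glia and 20.3 in Eomes cells. The share with a Top2a UMI differed by 2.36 points. These differences of group means are unchanged by the block and depart from the main values through the libraries that entered. Trp53 in Eomes cells turned to 0.10 on the log2 scale with the block and without it in the same libraries. No paired analysis was possible for Dlx progenitors and the oligodendrocyte lineage because too few numbered libraries held 10 cells.

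In Dlx progenitors the planned limma fit called 10 members, against 1 each with edgeR under either scaling and with DESeq2, 0 with no filter, with WT5 added, with all 9 libraries, within the counts and with the unit as a term, 14 within the logs (with 3716 of 7160 genes called), 16 with haemoglobin-rich cells, 6 and 4 at Leiden 0.5 and 2, and 0 to 25 with 1 library left out. With cell cycle genes kept in the clustering 31 passed, but the cluster so named then held 136 cells of KO4 in place of 29 and 97.4% of its WT cells counted as cycling, so it is not the same class. For the contrast of lineages limma called 2, against 3 by edgeR, 0 with WT5 added, with all 9 libraries and at Leiden 0.5 or 2, 28 with cell cycle genes kept in the clustering, where the class differs as above, and 0 to 16 with 1 library left out. The gates left too few Dlx cells in KO to run, and the fit without KO4 could not be made.

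The difference in cycling share over all kept cells, 4.16 points, became 14.9 with all 9 libraries, 8.04 without unnamed clusters, 14.5 at 2 UMIs, -7.40 at 5, -8.61 at 6, -8.60 at 10, -1.08 on G2/M members, -7.11 on S members, 22.5 within the logs and 8.57 within the counts. In radial glia it became 6.05 with haemoglobin-rich cells, -2.78 at 5 UMIs, -6.63 at 6, -14.6 at 10, -10.01 on S members, -2.86 at Leiden 2 and 5.02 with gates. In Eomes cells it became -0.58 at 5 UMIs, -2.39 at 6, -11.8 at 10, -12.8 on S members, -0.069 with gates and 19.97 within the logs. In Dlx progenitors it became 19.4 with all 9 libraries, -38.1 on S members, 16.7 within the logs and 22.2 within the counts. In the oligodendrocyte lineage it became 21.2 with all 9 libraries, 4.63 at 6 UMIs, -7.26 at 10, 17.8 on G2/M members, -20.4 on S members, 21.5 with cell cycle genes kept in the clustering, 5.32 with gates, 27.8 within the logs and 17.3 within the counts. With 1 library left out the ranges were 1.93 to 6.16 over all kept cells, 9.94 to 16.6 in radial glia, 3.37 to 17.6 in Eomes cells, -28.2 to -8.19 in Dlx progenitors and 9.39 to 14.3 in the oligodendrocyte lineage. The share with a Top2a UMI became 4.69 with all 9 libraries, 8.13 within the logs and 2.02 within the counts, and ranged from -4.01 to 0.080 with 1 library left out.

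In all kept cells 41 of 41 members had the lower mean in KO, against 11 with all 9 libraries and 7 within the logs. Of the genes refitted one by one, 6 turned sign under an alternative on the log2 scale. With cell cycle genes kept in the clustering, Top2a (0.059), Smc2 (0.30) and Atad2 (0.11) turned positive in Eomes cells. Within the logs, Cdkn1b turned to -0.10 in radial glia, Atad2 to 0.18 and Trp53 to 0.098 in Eomes cells, and Top2a to 0.59 and Ccnd2 to 0.43 in all kept cells. In all kept cells Top2a was 0.22 and Ccnd2 0.0015 with all 9 libraries, and 0.30 and 0.094 with the unit of deposit as a term.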

Other observations

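KO1, which entered no main comparison, combined high and low members in all kept cells. It had 12.4 UMIs per 10000 of Hmgb2, 3.29 of Cks2, 2.54 of Cenpf and 2.77 of 2810417H13Rik, while Ube2c was at 0.367, Cdc20 at 0.159 and Cdca8 at 0.201. Cells with 6 or more S and G2/M UMIs made up 23.9% of KO1 and 25.4% of KO2, and Top2a stood at 2.44 and 2.45 UMIs per 10000 in these libraries.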
